A study of Mus musculus with 7 samples.

Results

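Dendrin and 6 microtubule-associated proteins were followed in messenger RNA of hippocampal synaptoneurosomes, a brain fraction of resealed nerve endings joined to pieces of the receiving dendrite. The genes were Ddn, Map1a, Map1b, Map2, Map4, Map6 and Mapt, 7 of the 22248 genes in the count table, together with their 74 of 102392 transcripts. They were taken by symbol, whatever their values. The fraction came from wild-type C57Bl/6J female mice. Of the 7 libraries, 4 came from mice treated sub-chronically with AM6545 (letters B, D, E, F) and 3 from vehicle-treated mice (letters B, D, E). AM6545 is a CB1 cannabinoid receptor antagonist with limited entry into the brain. The ages of the mice, the dose, the length of treatment, the vehicle and the number of mice behind a library are not given in the sources used here. Nothing says that the libraries came from separate animals, so p-values measure the spread between these libraries only. By its title, the study asked about cognition and synaptic plasticity in the hippocampus after AM6545.

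Microtubules run the length of axons and dendrites, and microtubule-associated proteins stabilise, space and anchor them. Map2 protein is concentrated in dendrites and tau, the product of Mapt, in axons, although both proteins bind tubulin through related repeats. Map1b is abundant while neurons grow and Map1a in mature neurons, Map4 is found in many cell types, and Map6 protects microtubules from cold. Dendrin, the product of Ddn, is a proline-rich protein of dendrites and postsynaptic sites, and the Ddn and Map2 messengers are known to travel into dendrites.

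Tau transcripts differ in short coding exons, and counts divided along them are described further on. The exons for the N-terminal inserts of tau, of 87 bases each, are shown because counts assigned to models with both of them are compared between the groups below. They are given 5′ to 3′ in lower case as in the GRCm38 transcripts of GENCODE M21.
Mapt insert exon 1, chr11:104287123-104287209, plus strand: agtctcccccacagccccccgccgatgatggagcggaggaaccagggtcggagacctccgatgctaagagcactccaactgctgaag
Mapt insert exon 2, chr11:104289908-104289994, plus strand: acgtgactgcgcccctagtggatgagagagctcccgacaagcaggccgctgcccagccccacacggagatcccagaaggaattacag

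Library totals lay between 19174600 and 25894700 estimated counts, and the 7 genes together took between 0.332% and 0.370% of them. Between the libraries the 7 genes had from 1631 counts (Map6, vehicle B) to 42549 counts (Map1b, AM6545 D). Vehicle B stood apart, with 9.83% of its counts from mitochondrially encoded genes against 5.07% to 6.66% in the other 6 libraries. The libraries also differed in how levels depended on the GC content of genes: the slope of the log2 level per 10 percentage points of GC was -0.12 to -0.03 in AM6545 and 0.05 to 0.14 in vehicle, steepest in vehicle B. The summed level of 5 hippocampal marker genes was 625 to 734 CPM (counts scaled to a common library size with TMM factors) in AM6545 and 710.1 to 756 in vehicle. Postsynaptic markers were lower in AM6545 for 5 of 6 genes, 3 of them (Shank1, Shank3 and Dlg4, which are also in the list of dendritic messengers described further on) at an unadjusted p under 0.05, where 8.7% of all genes were lower, with summed levels of 873 to 920.0 CPM against 951 to 1185. Presynaptic markers were higher for 6 of 6, none at an unadjusted p under 0.05, with 8582 to 9114 CPM against 8096 to 8211. The part of these differences in the results below was not tested, and fewer dendritic pieces in the fraction and less RNA per piece cannot be told apart.

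All 7 genes passed the filter on low counts. Of these, 3 were lower in AM6545 (Ddn, Map1a and Mapt), where 48.6% of all genes were lower, and 4 higher (Map1b, Map2, Map4 and Map6), with a median log2 fold change of 0.04, against 0.01 over the 14654 genes tested. By edgeR's quasi-likelihood test 0 of the 7 had a Benjamini-Hochberg adjusted p under 0.05, where 0.00682% of all genes did. At an unadjusted p under 0.05 there were 2, Ddn and Map1a, both lower, where 14.6% of all genes had such a p, 8.7% lower and 5.86% higher. The 2 groups of libraries did not overlap for 3 genes, all lower in AM6545 (Ddn, Map1a and Mapt), where 13.8% of all genes did not, 7.19% lower and 6.63% higher. DESeq2 called 1 of the 7, Ddn, with 1.37% of all genes called, and limma-voom called 0.

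**Figure D1:**
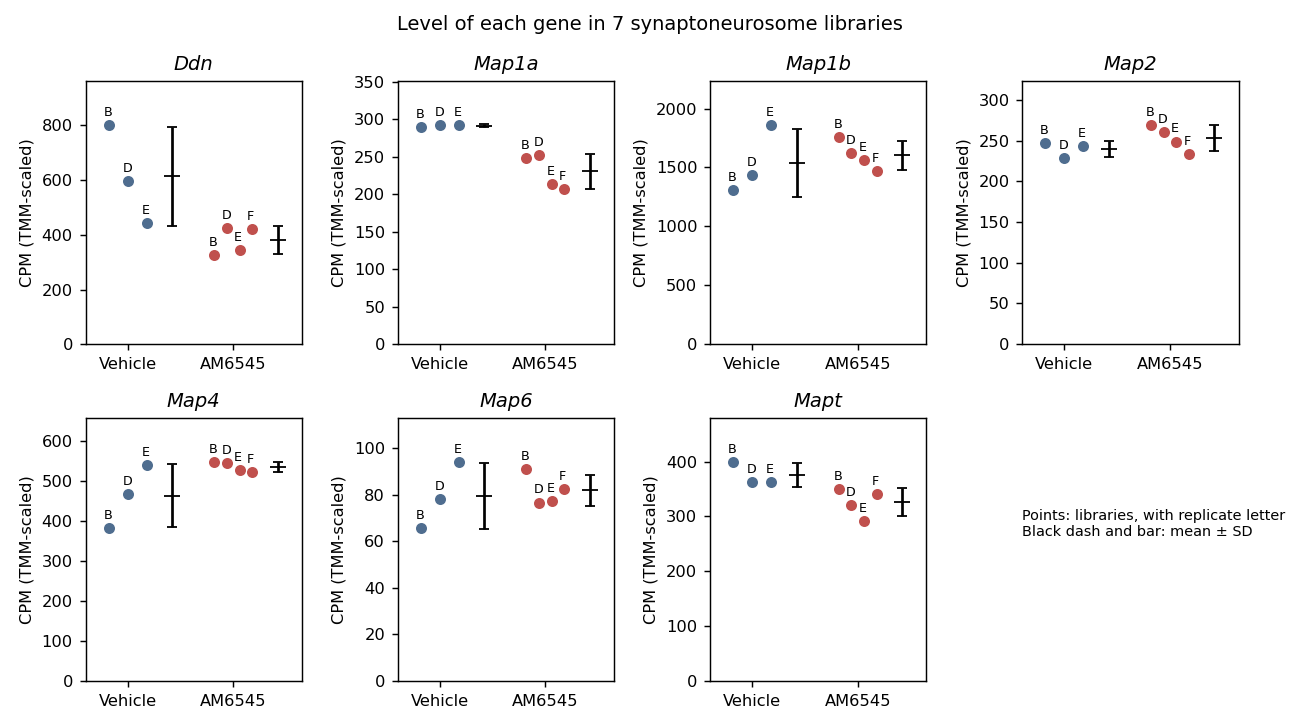
Level of each gene in CPM (vertical axes, from 0) in the 3 vehicle and 4 AM6545 libraries, 1 point a library with its replicate letter, and the mean ± SD in black. Ddn, Map1a and Mapt have all vehicle points above all AM6545 points, while vehicle B is highest for Ddn and lowest for Map1b, Map4 and Map6.

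Dendrin showed the largest difference among the 7. Ddn (ENSMUSG00000059213.8; GRCm38 chr15:98803777-98809490, minus strand) had 328, 426, 343 and 422 CPM in AM6545 B, D, E and F. In vehicle B, D and E it had 802, 595 and 443 CPM. Every AM6545 library was below every vehicle library, but the vehicle libraries were far apart and vehicle E was close to AM6545 D and F. The means were 379.7 ± 51.5 CPM (SD, n = 4) and 613 ± 180.2 (SD, n = 3). The log2 fold change, AM6545 over vehicle, was -0.69 (SE 0.18, 95% interval -1.08 to -0.30), a level 0.619 times that of vehicle, with an edgeR p of 0.00237 and an adjusted p of 0.199. By p-value Ddn stood at place 163 of 14654.

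The size of the dendrin difference depended on the vehicle libraries. Without vehicle E the log2 fold change was -0.88 and edgeR's adjusted p 0.0160, when 6.38% of all genes passed. Without vehicle B it was -0.45, with an adjusted p of 0.650. Over 20 other settings it stayed between these values and its direction did not change. Ddn shares 177 exonic bases, 4.68% of its exons, with an antisense gene on the opposite strand, and the sources used here do not say whether counting used strand.

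Map2, whose protein marks dendrites, did not follow dendrin. Map2 (ENSMUSG00000015222.19; chr1:66175273-66442583, plus strand) had 269, 261, 249 and 233 CPM in AM6545 B, D, E and F and 247, 228 and 244 CPM in vehicle B, D and E. The groups overlapped, and all 7 libraries lay within a narrow band. Its log2 fold change was 0.08 (SE 0.09, 95% interval -0.12 to 0.28), with an edgeR p of 0.418 and an adjusted p of 0.711. This interval excludes a difference as large as the -0.69 estimated for Ddn, and it includes 0. After a correction of the libraries for their trends with GC content and transcript length the Map2 value was -0.055.

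The ratio of Ddn to Map2 within a library needs no scaling between libraries. Its log2 value was 0.28, 0.71, 0.46 and 0.85 in AM6545 B, D, E and F and 1.70, 1.38 and 0.86 in vehicle B, D and E. The groups did not overlap, although AM6545 F and vehicle E nearly met. The means were 0.58 ± 0.25 (SD, n = 4) and 1.31 ± 0.42 (SD, n = 3), a difference of -0.74 (two-sided exact permutation p 0.0286, the smallest that the 35 splits of these libraries allow, and 0.0429 after Benjamini-Hochberg adjustment over the 3 ratios computed). With the GC and length correction the difference was -0.54 (exact permutation p 0.143). The 3 ratios were chosen with earlier results of these data known, so their p-values are descriptive only.

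Tau was slightly lower in AM6545. Mapt (ENSMUSG00000018411.18; chr11:104231390-104332090, plus strand) had 351, 321, 292 and 340.3 CPM in AM6545 B, D, E and F and 400.1, 364 and 362 CPM in vehicle B, D and E. The lowest vehicle library exceeded the highest AM6545 library by a small margin. The means were 326 ± 25.8 CPM (SD, n = 4) and 375 ± 21.4 (SD, n = 3). The log2 fold change was -0.20 (SE 0.10, 95% interval -0.42 to 0.01), with an edgeR p of 0.0595 and an adjusted p of 0.365. Its direction was the same in 20 of 20 other settings, between -0.27 and -0.15. The log2 ratio of Mapt to Map2 averaged 0.36 ± 0.14 (SD, n = 4) and 0.65 ± 0.06 (SD, n = 3), a difference of -0.28 without overlap (exact permutation p 0.0571, also after adjustment over the 3 ratios).

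The paralogues Map1a and Map1b are both cut after translation into a heavy and a light chain, and their levels behaved unlike each other. Map1a (ENSMUSG00000027254.14; chr2:121289600-121310832, plus strand) had 248, 253, 214 and 207 CPM in AM6545 B, D, E and F. In vehicle B, D and E it had 289, 292 and 293 CPM. The vehicle libraries were almost equal and all above the AM6545 libraries. The means were 230.4 ± 23.4 CPM (SD, n = 4) and 291 ± 1.92 (SD, n = 3). The log2 fold change was -0.34 (SE 0.10, 95% interval -0.56 to -0.12), with an edgeR p of 0.00525 and an adjusted p of 0.218. The correction for GC content and length reduced it to -0.07 (unadjusted p 0.528). Map1a shares 272 exonic bases, 2.24% of its exons, with Ppip5k1 on the opposite strand, whose own log2 fold change was 0.06 (SE 0.09, edgeR adjusted p 0.779).

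Map1b (ENSMUSG00000052727.7; chr13:99421446-99516540, minus strand) was the most abundant of the 7 by counts, with 1762, 1624, 1567 and 1467 CPM in AM6545 B, D, E and F. Vehicle B, D and E had 1307, 1438 and 1861 CPM. The vehicle libraries enclosed the whole range of the AM6545 libraries. The log2 fold change was 0.06 (SE 0.13, 95% interval -0.22 to 0.35), with an edgeR p of 0.634 and an adjusted p of 0.840, and without vehicle B it was -0.034. The log2 ratio of Map1a to Map1b was -2.83, -2.68, -2.88 and -2.82 in AM6545 B, D, E and F and -2.18, -2.30 and -2.67 in vehicle B, D and E. All AM6545 values lay below all vehicle values, with vehicle E next to AM6545 D. The means were -2.80 ± 0.08 (SD, n = 4) and -2.38 ± 0.26 (SD, n = 3), a difference of -0.42 (exact permutation p 0.0286, adjusted over the 3 ratios 0.0429). It was -0.17 with the GC and length correction (exact permutation p 0.171).

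Map4, the microtubule-associated protein of many tissues, was uniform in AM6545 and spread out in vehicle. Map4 (ENSMUSG00000032479.16; chr9:109931460-110083955, plus strand) had 548, 544, 527 and 522 CPM in AM6545 B, D, E and F and 381, 468 and 539 CPM in vehicle B, D and E. Vehicle E lay among the AM6545 libraries, and vehicle B was the lowest of all. Its log2 fold change was 0.21 (SE 0.12, 95% interval -0.04 to 0.46), with an edgeR p of 0.0973 and an adjusted p of 0.422. It was 0.33 without vehicle E (adjusted p 0.0875) and 0.09 without vehicle B (adjusted p 0.920).

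Map6, the stabiliser of cold-resistant microtubules, was the least abundant of the 7 by counts. Map6 (ENSMUSG00000055407.15; chr7:99267447-99337137, plus strand) had 90.8, 76.6, 77.3 and 82.4 CPM in AM6545 B, D, E and F and 65.7, 78.2 and 94.2 CPM in vehicle B, D and E. The vehicle libraries were both the lowest and the highest. Its log2 fold change was 0.04 (SE 0.12, 95% interval -0.23 to 0.32), with an edgeR p of 0.727 and an adjusted p of 0.883. Without vehicle B it was -0.070 and without AM6545 B -0.010, so its direction rests on single libraries.

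**Figure D2:**
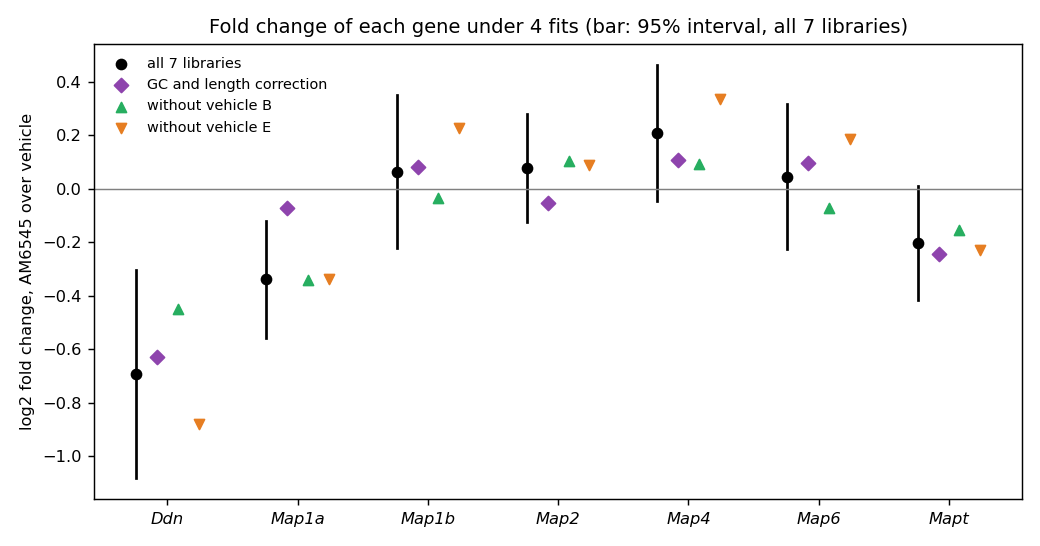
Log2 fold change of AM6545 over vehicle (vertical axis) for each gene with all 7 libraries and its 95% interval as a bar, with the GC and length correction, and without vehicle B or vehicle E. The Ddn values run from -0.88 to -0.45, all below 0, the Map1a value moves to -0.07 with the correction, and the Map1b, Map2 and Map6 values cross 0.

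The GC content of these transcripts spans much of the range of all genes. It was 59.9% for Ddn, higher than in 94.8% of the genes tested, 59.1% for Map6, 56.0% for Map1a and 54.3% for Mapt. It was 48.2% for both Map1b and Map4, and 42.9% for Map2, higher than in 12.8% of the genes tested. Fold changes across all genes were lower at high GC, so each gene was set beside those within 1 percentage point of its own GC content. Of the 681 such genes around Ddn, with a median log2 fold change of -0.14, 2.64% were lower than Ddn. Of the 1507 around Map1a, with a median of -0.08, 14.1% were lower than Map1a. Around Map6 the median of 932 genes was -0.13 and 84.0% were lower than Map6, but the 95% interval of Map6, -0.23 to 0.32, includes that median. Around Mapt 25.1% of 1537 genes were lower than Mapt, around Map2 40.1% of 1066 and around Map4 80.3% of 1579. With the correction as part of the fit, Ddn kept a log2 fold change of -0.63 (unadjusted p 0.00713, adjusted 0.729) and Mapt -0.24 (0.0293, adjusted 0.729), with 6.71% of all genes at an unadjusted p under 0.05.

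**Figure D3:**
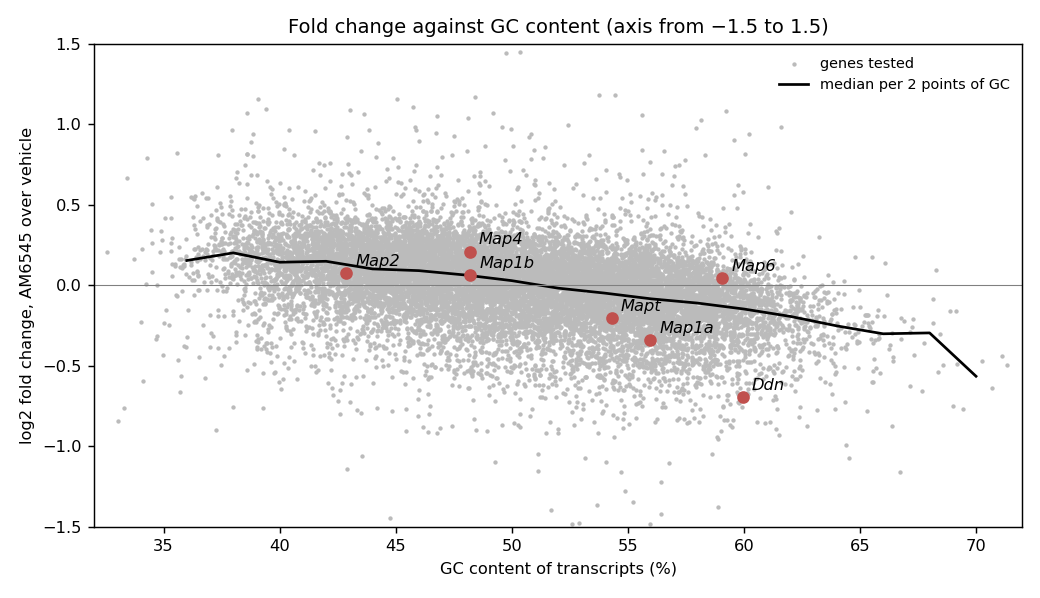
Log2 fold change of AM6545 over vehicle (vertical axis) against the GC content of transcripts in percent (horizontal axis) for the genes tested (grey), with the median per 2 points of GC (line) and the 7 genes (red). The line slopes down from left to right, Ddn and Map1a lie below it, and Map6 and Map4 above it.

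Levels of different genes can be compared only per length of transcript, for which TPM (counts divided by annotated length, scaled to a common total) was computed here. Over all 7 libraries Map1b had a mean of 912 TPM (612 to 1061). Mapt with 286 TPM (251 to 305), Map4 with 261 (164 to 289.9) and Ddn with 240.3 (169.5 to 356) followed with overlapping ranges. Map2 had 94.1 TPM (79.5 to 108), below all of these. Map6 with 47.1 (34.7 to 53.9) and Map1a with 46.2 (38.6 to 54.0) were lowest and did not differ beyond their spread.

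This order depended on transcript models with little or no coding sequence. When only models with a coding region of at least 900 bases were counted, a choice made after the values were seen, Map1b had 119 TPM (93.8 to 131) and Map4 106 (70.3 to 125). Mapt then led with 277 TPM (243 to 299), next to Ddn with 240.2 (169 to 356) and with overlapping ranges. Map2 kept 90.4 TPM (77.1 to 103), Map6 46.9 (34.5 to 53.7) and Map1a 46.0 (38.6 to 53.8). The Map1b counts outside this set belong mostly to Map1b-206 and Map1b-202, models without a coding region of which 92.0% and 87.7% of bases lie within Map1b-201, the coding model.

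Of the 74 transcripts, 42 passed the filter on low counts and 0 had an adjusted p under 0.05 by edgeR, where 0.0177% of all transcripts did. At an unadjusted p under 0.05 there were 6, with 4 lower and 2 higher in AM6545, where 8.39% of all transcripts were at such a p in either direction. By level the 2 groups of libraries did not overlap for 6 of the 42, where 10.8% of all transcripts did not. No such figure over all genes is given here for shares of a gene's counts. DESeq2 called 2, Map1a-201 and Map1b-202, among 390 of all transcripts, where edgeR called 6. In the test of transcript shares within a gene, 0 of the 6 genes with at least 2 transcripts passed at an adjusted p under 0.05, where 0.725% of all genes did. At an unadjusted p there were 4 (Map1a, Map1b, Map2 and Map6), where 3.93% of all genes passed. Ddn could not be tested, since Ddn-201 held nearly all of its counts.

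Map1b had the smallest p of the 6 for transcript shares. The non-coding model Map1b-202 took 16.5%, 17.7%, 21.5% and 15.6% of Map1b counts in AM6545 B, D, E and F and 10.2%, 14.5% and 8.80% in vehicle B, D and E. Every AM6545 library was above every vehicle library. The log2 fold change of its level was 0.77 (SE 0.19, edgeR p 0.00500, adjusted p 0.559), and the gene's share test had an adjusted p of 0.0917. The coding model Map1b-201 took 46.4% ± 2.12 (SD, n = 4) and 47.5% ± 3.08 (SD, n = 3). Map1b-206 took 35.6% ± 2.10 (SD, n = 4) and 41.2% ± 4.01 (SD, n = 3). Map1b-202 ends 12855 bases short of the 3′ end of Map1b-201 in genome coordinates and shares 87.7% of its bases with it. It also lies within the genome span of Map1b-206, the other large non-coding model, whose share was lower in AM6545. The division of reads among these models is therefore an estimate. Without vehicle D, 1 of the 6 genes passed the share test, Map1b, when 101 of all 9165 genes tested did.

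For Map1a the difference lay in the longer of its 2 main models. Map1a-201 (11825 bases, coding length 9042) took 22.8%, 22.0%, 19.9% and 26.5% of Map1a counts in AM6545 B, D, E and F and 43.6%, 29.6% and 28.6% in vehicle B, D and E. The groups did not overlap, and vehicle B was far above the rest. Its level had a log2 fold change of -0.91 (SE 0.18, edgeR p 0.00130, adjusted p 0.447). The level of Map1a-202 (10145 bases, coding length 8328) had one of -0.11 (SE 0.13, edgeR p 0.429, adjusted p 0.856). The models differ at both ends, so an upstream start and a longer 3′ end cannot be told apart, and 99.1% of the bases of Map1a-202 are also in the longer model. The share test for Map1a had an adjusted p of 0.445.

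Map2 counts were divided mostly among 4 models, and the vehicle and AM6545 libraries overlapped for each. Map2-204, which holds the whole large exon of 3741 bases that makes the high-molecular-weight form of the adult dendrite, took 25.1% ± 3.55 (SD, n = 4) and 20.2% ± 6.81 (SD, n = 3). All 7 models with the exon or a part of it took 34.0%, 29.4%, 33.7% and 22.1% in AM6545 B, D, E and F and 13.0%, 23.0% and 29.7% in vehicle B, D and E. Vehicle B was lowest, and vehicle E lay among the AM6545 libraries. Models without the large exon and with the exon for an additional tubulin-binding repeat took 11.3% ± 4.16 (SD, n = 4) and 9.48% ± 4.08 (SD, n = 3). Among them only Map2-207 had counts. The 4 longest models without either took 57.3% ± 7.93 (SD, n = 4) and 67.4% ± 12.6 (SD, n = 3). The remaining 11 models took 1.45% to 1.76% in AM6545 and 1.07% to 1.41% in vehicle, without overlap. The annotated 3′ ends differ between these models, so the shares also carry differences in 3′ end. The share test for Map2 had an adjusted p of 0.508. In that test the smallest p of a single Map2 model was that of Map2-203 (0.00127, adjusted 0.235). Map2-203 took 0% in AM6545 B, D and E, 0.701% in AM6545 F, and 6.06%, 1.55% and 5.49% in vehicle B, D and E. Its level had a log2 fold change of -4.64 (SE 1.67, edgeR p 0.0277, adjusted p 0.561). A model of 5125 bases has the same annotated 3′ end as Map2-203 (5119 bases), so the division of reads between them is an estimate. Without AM6545 F Map2 was the 1 gene of the 6 that passed, when 98 of all 8413 genes tested did.

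Tau counts were divided between models with and without the 2 insert exons printed above. Models with both inserts took 37.0%, 38.6%, 38.6% and 38.8% of Mapt counts in AM6545 B, D, E and F and 29.9%, 32.8% and 36.7% in vehicle B, D and E. The AM6545 libraries were close together and just above vehicle E, the highest of the vehicle libraries. The 3 models Mapt-204, Mapt-205 and Mapt-210, without the inserts, took 61.3% ± 0.973 (SD, n = 4) and 66.3% ± 3.50 (SD, n = 3). The remaining 6 models took 0.497% ± 0.150 and 0.525% ± 0.0894 of the counts. Mapt-204, a model without inserts and with the most distant 3′ end, had a log2 fold change of -0.40 (SE 0.14, edgeR p 0.0258, adjusted p 0.561), and Mapt-201, with both inserts, one of 0.02 (SE 0.08, adjusted p 0.972). Their annotated 3′ ends differ, and the share test for Mapt had an adjusted p above 0.99.

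Map4 and Map6 also had models that stood out by level. Map4-206, a model of 3446 bases with a coding length of 297, had a log2 fold change of 0.35 (SE 0.13, edgeR p 0.0291, adjusted p 0.562), with 38.7% ± 4.49 (SD, n = 4) and 35.8% ± 6.03 (SD, n = 3) of Map4 counts. Map4-204, the other large model, took 30.4% ± 5.10 and 35.6% ± 2.90, with overlapping libraries. Map6-203 took 10.3%, 9.42%, 9.50% and 8.68% of Map6 counts in AM6545 B, D, E and F, and 0%, 0% and 3.51% in vehicle B, D and E. Its estimated counts were 156 to 216 in AM6545, 0 in vehicle B and D, and 61.0 in vehicle E. The groups did not overlap, but edgeR gave a p of 0.112 and an adjusted p of 0.673, and every base of Map6-203 is also part of another model. The larger models Map6-207, Map6-205 and Map6-204 had log2 fold changes of 0.16, -0.12 and -0.008 (edgeR adjusted p 0.821, 0.906 and 0.992). The share tests for Map4 and Map6 had adjusted p-values above 0.99 and of 0.731. Without vehicle E both genes passed, when 163 of all 9147 genes tested did.

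**Figure D4:**
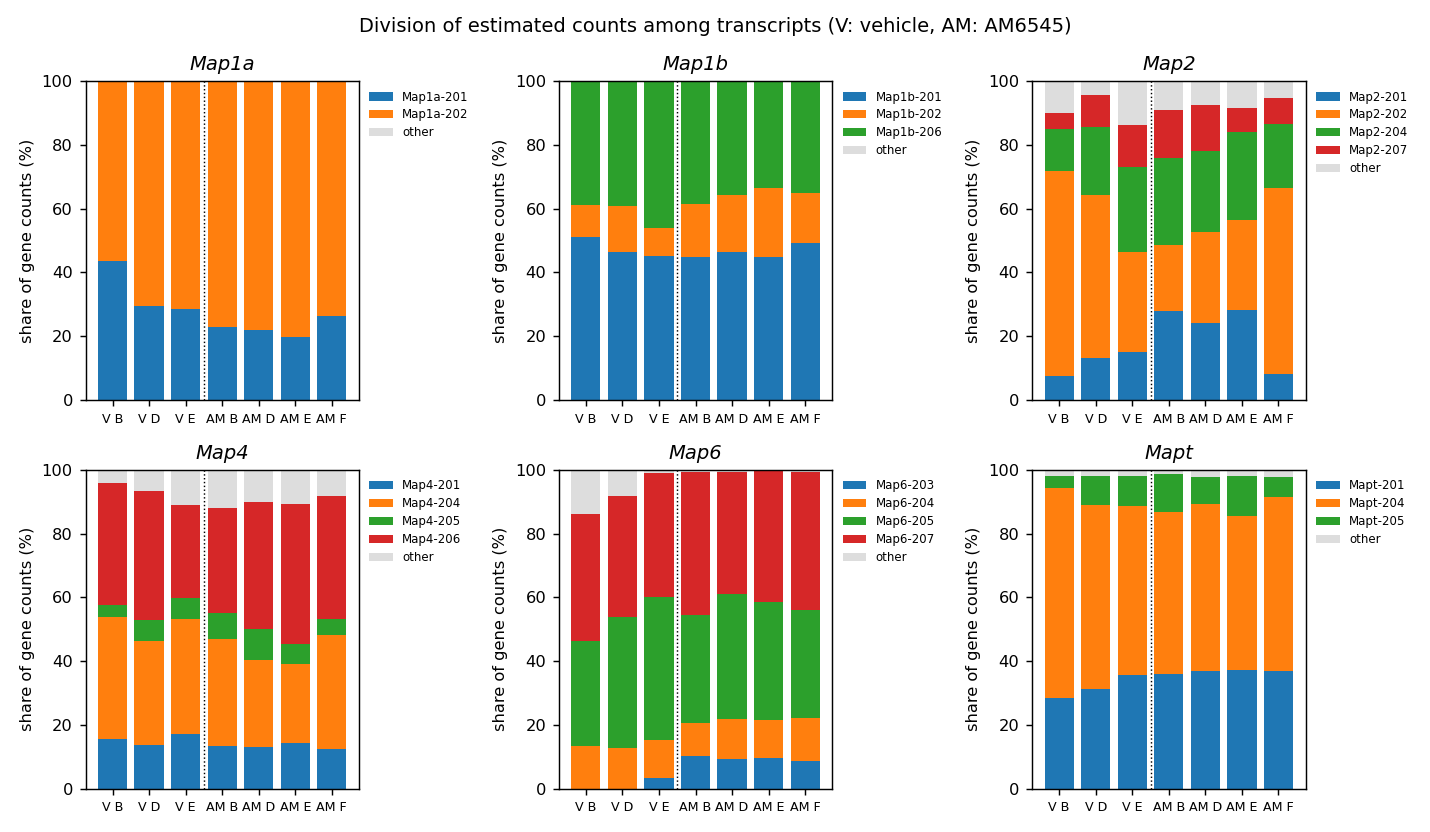
Share of each gene's estimated counts in percent (vertical axes, stacked to 100) taken by the transcripts with at least 5% in either group, in the 3 vehicle (V) and 4 AM6545 (AM) libraries on either side of the dotted line. Map1a-201 is between 19.9% and 26.5% in AM6545 and between 28.6% and 43.6% in vehicle, and Map6-203 is listed at 0 in vehicle B and D.

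Lists of related genes were read beside the 7. The lower level of dendritic messengers had been seen in these data before the lists were set. The counts for that list therefore describe these libraries and are no independent test. Among 20 other messengers known or proposed to be present in dendrites, 18 were lower and 2 higher in AM6545, with a median log2 fold change of -0.24. At an unadjusted p under 0.05 there were 10 lower and 0 higher, where 8.7% of all genes were lower. At an adjusted p under 0.05 there were 0 by edgeR, 3 by DESeq2 (1.37% of all genes) and 1 by limma-voom (0.805% of all genes). The smallest p-values were those of Shank1 (-0.77, p 0.000366), Shank3 (-0.82, p 0.00341) and Dlgap3 (-0.60, p 0.00441), scaffold proteins of the postsynaptic density, and of Ppp1r9b (-0.87, p 0.0190), which encodes spinophilin. For these 4 genes the adjusted p lay between 0.199 and 0.266. The list had a median GC content of 57.0% against 50.4% over all genes. After the GC and length correction 8 of 20 were lower at an unadjusted p under 0.05, where 4.47% of all genes were, and the median was -0.13. Without vehicle B there were 3 (3.69% of all genes), without vehicle D 6 (7.99%), without AM6545 B or AM6545 E 5 each (7.2% and 7.09%), and without vehicle E 11 (12.9%). Of the list, 6 passed at an adjusted p without vehicle E, when 6.38% of all genes did.

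The 13 tubulin genes, the building blocks of microtubules, were split into 7 lower and 6 higher, with 0 reaching an unadjusted p of 0.05 in edgeR or DESeq2 (1 in limma-voom) and a median of -0.01. With scaling by total counts the split was 6 lower and 7 higher, without vehicle B 11 and 2, without vehicle D or AM6545 B 10 and 3, and without vehicle E or AM6545 E 3 and 10, so the split turned with single libraries. The limma-voom fit also gave 3 and 10. Of 28 other microtubule-associated and plus-end proteins 11 were lower and 17 higher, with a median of 0.03. In that list 1 was at an unadjusted p under 0.05, where 14.6% of all genes were: Map1lc3a (-0.41, p 0.00441, adjusted p 0.212), a light chain relative that serves in autophagy. Without vehicle E there were 4 lower and 4 higher (25.7% of all genes), of which 1 passed at an adjusted p.

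Of 24 kinases and phosphatases acting on tau and other microtubule-associated proteins, 12 were lower and 12 higher, with a median of 0.00. At an unadjusted p under 0.05 there were 4 lower, where 8.7% of all genes were lower. These were Cdk5r2 (-0.42, p 0.00188), an activator of Cdk5, and the tau kinase genes Ttbk1 (-0.54, p 0.00735), Mark4 (-0.40, p 0.0184) and Brsk1 (-0.67, p 0.0212). The 1 gene higher, named after its value was seen, was Mapk9 (0.28, p 0.0231), a JNK kinase. Their adjusted p-values lay between 0.199 and 0.280. Without vehicle B 1 of the list was lower at an unadjusted p under 0.05 (3.69% of all genes). Without vehicle E 8 were lower and 6 higher, when 25.7% of all genes were at such a p in either direction, and 5 of the list passed at an adjusted p.

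Of 20 genes for tubulin modification and severing 6 were lower and 14 higher, with 1 at an unadjusted p under 0.05 in each direction, where 8.7% of all genes were lower and 5.86% higher: Svbp (-0.40, p 0.0160), the partner of the vasohibin detyrosinases, and Agtpbp1 (0.24, p 0.0246), which shortens polyglutamate chains. Without vehicle E 1 was lower and 5 higher at such a p, as were 25.7% of all genes in either direction, and 1 passed at an adjusted p. Of 7 genes for partners of dendrin, among which the actinin gene Actn1 had the smallest p (-0.33, p 0.115, adjusted p 0.446), 2 were lower and 5 higher, 0 reaching an unadjusted p of 0.05 in edgeR or DESeq2 and 1 in limma-voom. In the 6 lists together 0 genes had an adjusted p under 0.05 by edgeR, with the unadjusted counts given above. DESeq2 called 3 of the dendritic list and 1 of the kinase list (1.37% of all genes), and limma-voom 1 of each (0.805% of all genes).

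**Figure D5:**
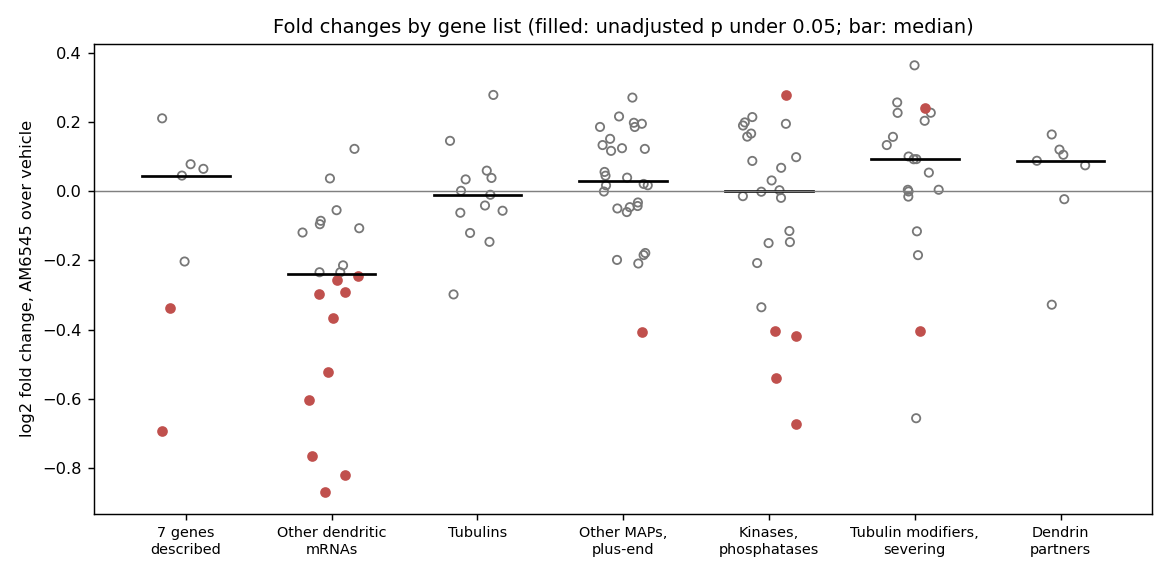
Log2 fold change of AM6545 over vehicle (vertical axis) of each gene tested in the 7 genes described and in 6 lists of related genes, with filled points at an unadjusted p under 0.05 and a bar at the median. The other dendritic messengers, already seen to be lower in these data when the lists were set, have their median at -0.24. The remaining lists have medians between -0.01 and 0.09.

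Across the 7 libraries, which differ in depth and in slope with GC, the 7 genes formed opposite patterns. Pearson's r of log2 CPM was -0.92 between Ddn and Map4, 0.88 between Map1b and Map6, 0.82 between Map1b and Map4, 0.76 between Ddn and Mapt and 0.74 between Map1a and Mapt (n = 7 for each). Vehicle B is an end point of most of these, highest for Ddn and Mapt and lowest for Map1b, Map4 and Map6. Among 9448 other genes with at least 10 CPM on average, the 2 most alike to each were sought by the same measure. Those for Ddn were Grik5 (r 0.99), a kainate receptor subunit with a log2 fold change of -0.58 (edgeR p 0.00134, adjusted p 0.199), and Shank3 (r 0.99). Those for Map1a were Rexo1 (r 0.97) and Trp53i13 (r 0.95), and those for Mapt Hsd17b10 and Spr (r 0.99 each). Those for Map1b were Bcas1 and Mobp (r 0.99 each), both genes of myelinating oligodendrocytes. The 7 oligodendrocyte markers summed to 17127 to 20227 CPM in AM6545 and 16830.5 to 23062 in vehicle, and their part in the level of Map1b was not tested. Those for Map2 were Prss23 (r 0.95) and Cflar (r 0.91), for Map4 Cry1 (r above 0.99) and Mios (r 0.99), and for Map6 Nup133 and Aldh1b1 (r 0.99 each).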

How the data were processed

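Messenger RNA of hippocampal synaptoneurosomes was sequenced in 4 AM6545 and 3 vehicle libraries. Per the labels' protocols, an RNeasy kit was used for total RNA and a SMARTer kit for low input for the libraries. Per the submitters' processing notes, Salmon 1.5.2 and the build mm10 were used. The annotation release and the use of strand are not given in the sources used here. The deposited values are estimated counts per gene and per transcript, unscaled, as the authors made them.

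Identifiers were matched without version to GENCODE M21 (GRCm38), with 22148 genes found. For 22135 of them the deposited version is higher, so names, lengths, GC content, exons and coordinates may differ from those used for counting. Exon sequences were read from that release. Map1a, Map1b, Map2 and Map4 had promoter entries, which are not shown.

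Counts were rounded and tested with edgeR 4.0.16 (limma 3.58.1, R 4.3.3) by a quasi-likelihood fit with TMM scaling, filterByExpr, robust estimation and no covariates. P-values were adjusted by the Benjamini-Hochberg method over all genes or transcripts tested, with a threshold of 0.05. Standard errors were derived from the log2 fold change and its F statistic. Fold changes are AM6545 over vehicle. Transcript shares were tested with diffSpliceDGE and Simes p-values. Ratios were tested by exact permutation, two-sided, over all 35 ways to assign 4 of 7 libraries.

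The 7 genes, lists and tests were chosen with earlier results of these data known, and the lower level of dendritic messengers had already been seen in them. All 7 genes are named, with transcripts holding at least 5% of a gene's counts in either group, the 2 most alike genes each, and up to 4 genes of each list by p-value, with 1 gene beyond the rule marked as such. A few transcripts with smaller shares are also named. Alternatives were other scalings, DESeq2 1.42.0, limma-voom, other filters, no robust estimation, a block for the replicate letter, summed transcripts, removal of mitochondrially encoded genes, a correction for GC content and length (lowess, span 0.3), an adjusted p under 0.1 and leaving out each library. Those for the lists, and levels per length from long coding models, were added after seeing the data. The code was tested on simulated data.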

Additional observations from a re-analysis of the deposited data

Results flagged for a closer look

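Among 31 values checked in the 4 AM6545 libraries, where chance flags about 1 in 20, a single value lay apart from the others of its group. The share of Ddn counts assigned to Ddn-201 was 99.97% in AM6545 B and 100% in the other AM6545 libraries. The remainder in AM6545 B, 2.03 estimated counts, went to the only other Ddn model, Ddn-202. With the other values all at 100%, any lower value would be flagged, whatever its size.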

How the results depend on the processing

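Over 20 other settings the log2 fold changes of Ddn, Map1a, Map4 and Mapt did not change direction. That of Map1a, however, came to -0.00032, close to no difference, with the GC and length correction and the replicate block. Map2 turned to -0.055 with the GC and length correction and -0.027 with that correction and the replicate block, and without single libraries Map1b ranged from -0.034 (without vehicle B) to 0.23 and Map6 from -0.070 (without vehicle B; -0.010 without AM6545 B) to 0.18. Of the 7 genes 1 (Ddn) passed with DESeq2, and 0 to 1 when a library was left out. Over all genes, 1 passed in the report's fit, 250 with DESeq2, 118 with limma-voom, 2 with a mean of at least 50 counts, 2 without robust estimation, 0 with the GC and length correction (984 unadjusted), 4 at an adjusted p under 0.1, and 0 to 944 without a library (944 without vehicle E, 0 without vehicle B or AM6545 E). Among the transcripts of the 7 genes 2 passed with DESeq2 (390 of all transcripts) and 0 to 1 without a library (1 to 14 of all transcripts). In the share test 0 to 2 of the genes passed without a library, when 70 to 163 of all genes did.

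The letters shared by the groups showed no sign of pairing: deviations from the group means correlated at -0.26 for B, -0.13 for D and -0.18 for E. Of the 3 libraries 0 correlated best with their own letter. What the letters mean is not given, and with 3 shared letters this check cannot exclude pairing. With the replicate block 1 of all genes passed (1199 unadjusted) and 0 of the 7, and the log2 fold changes were -0.71 for Ddn and -0.29 for Map1a (unadjusted p 0.0513). The ratio of Ddn to Map2 then differed by -0.83 and that of Map1a to Map1b by -0.41, each with the exact permutation p of 0.250 that 3 pairs allow at least. With the GC and length correction they differed by -0.54 and -0.17. Without a library they differed by -0.96 to -0.54 and by -0.57 to -0.32, and these smaller designs cannot reach an exact p under 0.05. The cause of these changes was not tested. With 7 libraries, and counts from 1631 to 42549 per gene, the spread between libraries limits the precision more than depth does.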

Other observations

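Other cell types in the fraction were followed by markers. Microglia markers were lower in AM6545 for 5 of 7 genes, 4 of them at an unadjusted p under 0.05 by edgeR (8.7% of all genes), with a median log2 fold change of -0.45 and summed levels of 679 to 714 CPM against 689 to 937 in vehicle. At an adjusted p under 0.05 DESeq2 called 4 of the 7 microglia markers (1.37% of all genes), and edgeR and limma-voom 0. With the GC and length correction 1 of 7 was lower at an unadjusted p under 0.05 (4.47% of all genes) and the median was -0.14. Choroid plexus markers were lower for 5 of 5, 0 at an unadjusted p under 0.05 by edgeR or DESeq2 and 4 by limma-voom, with 411 to 1948 CPM against 1555 to 2758. Without vehicle D 2 were lower and 3 higher (median 0.12), and with the replicate block 3 and 2 (median -0.02). Astrocyte markers summed to 3982 to 4988 CPM and 4152 to 5398, and endothelial markers to 9.93 to 17.7 and 9.90 to 17.6. Excitatory neuron markers, lower for 5 of 6 and 2 at an unadjusted p under 0.05 (8.7% of all genes), summed to 3769.8 to 4089 CPM and 4119 to 4842. The 2 were Neurod2 and Nrgn, which is also in the dendritic list. Inhibitory neuron markers, lower for 4 of 6 and 1 (Sst) at an unadjusted p under 0.05, summed to 632 to 727 CPM and 651 to 724. Those of oligodendrocyte precursors, lower for 3 of 4 and 2 at such a p, summed to 249 to 265 and 279.8 to 303. Over all genes 8.7% were lower at such a p. With the GC and length correction 0 of the inhibitory and 1 of the precursor markers were (4.47% of all genes). At an adjusted p under 0.05 DESeq2 called 2 of the 6 postsynaptic and 1 of the 7 oligodendrocyte markers (1.37% of all genes). By limma-voom 1 of each passed (0.805% of all genes), and by edgeR 0. No marker was at 0 in all libraries.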
